A study of Homo sapiens with 8 samples.

Results

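At 470 of 27578 CpG sites on a promoter-weighted methylation array, the prostate cancer lines DU145 and LNCaP-FGC stood together on one side and the cancer line PC3 and the control line RWPE-1 on the other. The measure was the beta value, the part of a site's signal that comes from methylated DNA, with 1 for a fully methylated site. Of the 27541 sites with a value on all 4 arrays, a site was taken when both lines of the pair lay at least 0.3 in beta above, or at least 0.3 below, both other lines. The upper direction held 430 sites (1.56% of the 27541) and the lower direction 40 sites (0.145%). The distance between the nearest lines of the opposing sides is called the gap below. The sites were selected on the betas of these same 4 arrays, so their levels are a description and carry no test.

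Methylation and total RNA were each measured on 1 array per line, giving 8 samples. DU145, LNCaP-FGC and PC3 were each grown from a metastasis of a prostate carcinoma, and LNCaP-FGC is a clone of the androgen-sensitive LNCaP line. RWPE-1 is an epithelial line from non-cancerous prostate, immortalized with a papillomavirus, and stood as the control. The labels name no treatment and no further genetic change, and with no repeat array or culture for any line no value below has an error or a p-value.

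Methylation of cytosine at CpG sites is copied to the daughter strand when a cell divides, so a cell line can carry much of its pattern through culture. CpG-rich promoters are mostly free of it in normal cells, and cancer cells often gain it at some of them, where dense methylation is associated with a silent gene. Prostate carcinomas are known for such promoter gains. The deposited tables pair no site with a gene, position or sequence, so the sites are described by their levels, with 2 identifiers printed per direction. The identity of the lines was for the same reason not checked against marker genes.

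In the group of 430 sites, DU145 and LNCaP-FGC were mostly well methylated and PC3 and RWPE-1 mostly close to unmethylated. The beta in DU145 ran from 0.347 to 0.993 with a median of 0.826. In LNCaP-FGC it ran from 0.335 to 0.986 with a median of 0.816. PC3 had a median of 0.151 and a range of 0.0126 to 0.626, and RWPE-1 a median of 0.110 and a range of 0.00742 to 0.605. Over all 27541 sites the medians were 0.0761, 0.0772, 0.104 and 0.0570 in the same order of lines, so the low side of the group lay above the typical site of its own arrays. The ranges of the opposing sides overlapped across sites, although at each single site they were apart by the rule.

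The site with the widest gap was cg27009703, with betas of 0.987 in DU145 and 0.980 in LNCaP-FGC against 0.0211 in PC3 and 0.0203 in RWPE-1. Site cg26521404 followed with 0.993 and 0.985 against 0.0283 and 0.0112. At both, the pair was near the top of the scale and the other lines near the bottom. Their gaps of 0.958 and 0.957 stood against a median of 0.416 in the group. With the 2 other scalings described below, the order of these sites changed. The gaps were 0.959 and 0.965 on quantile-normalized betas and 0.944 and 0.952 on linearly rescaled betas.

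Such all-or-none sites were a minority. A beta above 0.8 in both lines of the pair together with one below 0.2 in both other lines was found at 41 sites (9.53% of the 430). At a further 88 sites (20.5%) the pair lay between 0.2 and 0.8 while PC3 and RWPE-1 were below 0.2, so the pair was partly methylated over an unmethylated background. The reverse mixture, with the pair above 0.8 and both other lines between 0.2 and 0.8, was found at 51 sites (11.9%). At 14 sites (3.26%) all 4 lines were between 0.2 and 0.8. At the other 236 sites the lines of at least one side fell into different classes.

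**Figure D1:**
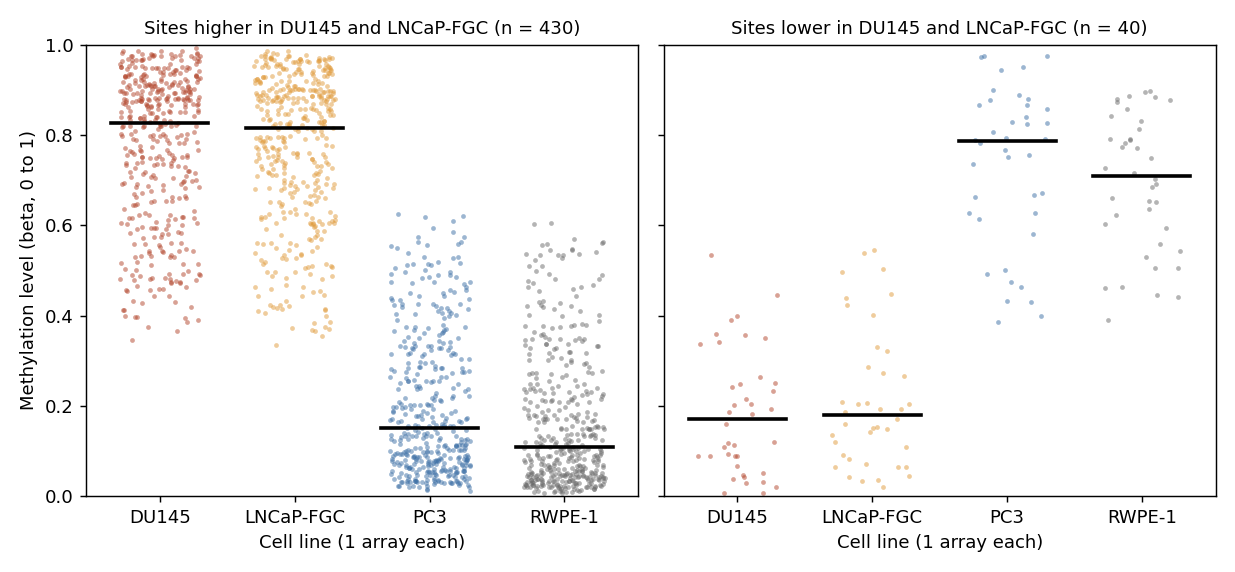
Beta value (vertical axis) of every site in each line, for the 430 sites higher and the 40 sites lower in DU145 and LNCaP-FGC. Each point is 1 site on 1 array and the black bar is the median; in the upper direction the medians are 0.826 and 0.816 against 0.151 and 0.110, and in the lower direction 0.170 and 0.179 against 0.786 and 0.710.

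Levels are given here by size of gap, which is computed from the same betas. The 196 sites with a gap under 0.4 had median betas of 0.801 in DU145 and 0.747 in LNCaP-FGC against 0.233 in PC3 and 0.130 in RWPE-1. The 107 sites with a gap from 0.4 to below 0.5 had medians of 0.720 and 0.773 against 0.155 and 0.124, lower in DU145 than at the narrowest gaps. The 46 sites with a gap of at least 0.7, which by definition lie above 0.7 in the pair, had medians of 0.938 and 0.940 against 0.0703 and 0.0555. At the edge of the rule, the 3 sites just inside had gaps of 0.301, 0.302 and 0.302, and the 3 just outside gaps of 0.299, 0.299 and 0.299. The innermost had betas of 0.347 in DU145 and 0.768 in LNCaP-FGC against 0.0439 in PC3 and 0.0463 in RWPE-1, and the nearest one left out had 0.859 and 0.950 against 0.560 and 0.369.

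The lines of each side did not match at every site. DU145 and LNCaP-FGC were within 0.1 of each other at 240 of the 430 sites (55.8%), and they were at least 0.3 apart at 47 (10.9%), DU145 being the higher at 22 of these and LNCaP-FGC at 25. The median of DU145 minus LNCaP-FGC was 0.00953, so neither line of the pair was higher throughout. PC3 and RWPE-1 were within 0.1 of each other at 265 sites (61.6%) and at least 0.3 apart at 50 (11.6%). Of those 50 sites PC3 was the higher at 39 and RWPE-1 at 11. PC3 was the higher of these lines, and so the closer to the pair, at 273 of the 430 sites, against 157 for RWPE-1. Over all sites PC3 also read higher, with a median of 0.104 against 0.0570 and a mean beta of 0.302 against 0.258. The share of all sites with PC3 above RWPE-1 was not counted, so this lean is not shown to be particular to the group.

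The group of 40 sites lower in DU145 and LNCaP-FGC had narrower gaps. Betas ran from 0.00714 to 0.535 in DU145 with a median of 0.170, and from 0.0206 to 0.546 in LNCaP-FGC with a median of 0.179. PC3 ran from 0.386 to 0.976 with a median of 0.786, and RWPE-1 from 0.391 to 0.897 with a median of 0.710. The high side was often partly methylated, with a beta between 0.2 and 0.8 at 23 of the 40 sites (57.5%) in PC3 and at 29 (72.5%) in RWPE-1. No site of the 40 had both lines of the pair below 0.2 and both other lines above 0.8. The commonest pattern, at 12 sites (30.0%), had the pair below 0.2 and both other lines between 0.2 and 0.8.

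The widest gap in this direction was at cg09485593, with betas of 0.249 in DU145 and 0.149 in LNCaP-FGC against 0.858 in PC3 and 0.879 in RWPE-1. Site cg21522988 had 0.0890 and 0.209 against 0.768 and 0.791. At both sites the lines of the pair differed from each other more than PC3 did from RWPE-1. Their gaps were 0.609 and 0.559, the median gap of the 40 sites was 0.379, and 29 sites (72.5%) had a gap under 0.4. The 3 sites just inside the limit had gaps of 0.311, 0.320 and 0.322 and the 3 just outside gaps of 0.299, 0.294 and 0.292. The innermost site had betas of 0.350 in DU145 and 0.135 in LNCaP-FGC against 0.880 in PC3 and 0.661 in RWPE-1, and the nearest one left out had 0.302 and 0.240 against 0.601 and 0.616.

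DU145 and LNCaP-FGC were within 0.1 of each other at 22 of the 40 sites (55%), and so were PC3 and RWPE-1. The lines of the pair were at least 0.3 apart at 3 sites, with LNCaP-FGC the higher at each. PC3 and RWPE-1 were that far apart at 5 sites, PC3 being the higher at 3.

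**Figure D2:**
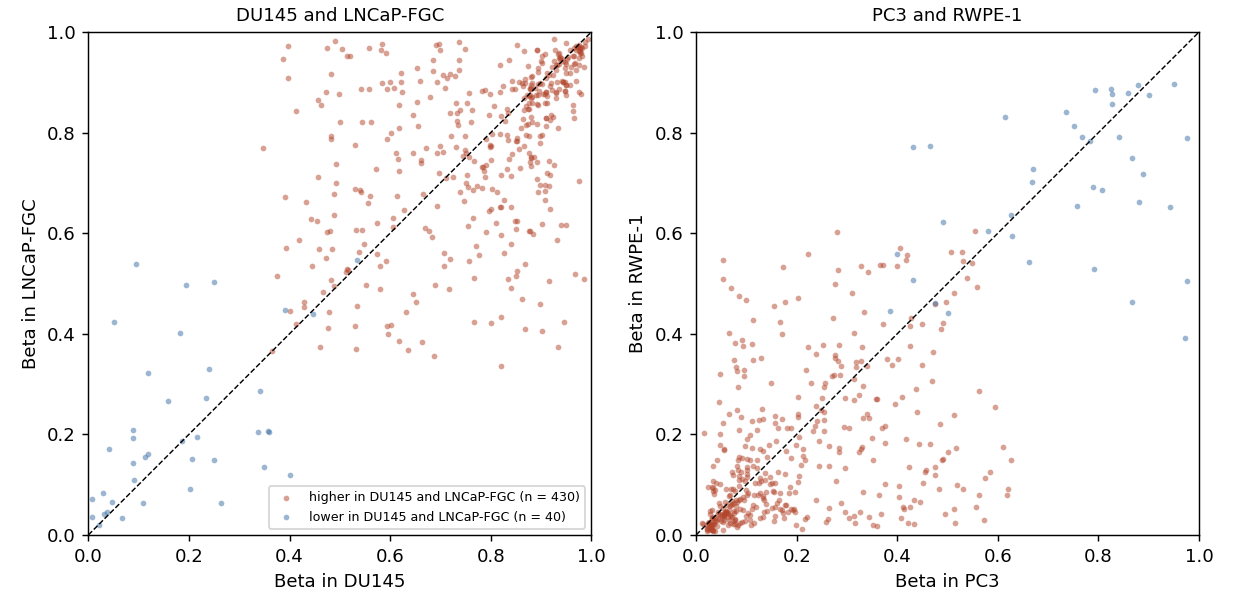
Beta in LNCaP-FGC against DU145 (left) and in RWPE-1 against PC3 (right) at the sites higher (red, n = 430) and lower (blue, n = 40) in DU145 and LNCaP-FGC, with the dashed line marking equal betas. Points far from the dashed line are the sites at which the lines of one side were at least 0.3 apart, 47 of the red points on the left and 50 on the right.

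The upper group was set beside all sites at which DU145 or LNCaP-FGC was more methylated than the control. Its sites were 430 of 3873 sites (11.1%) at which DU145 exceeded RWPE-1 by at least 0.3, and of 3218 such sites (13.4%) in LNCaP-FGC. Both lines exceeded RWPE-1 by that much at 1501 sites, and the group made up 28.6% of these. Both exceeded PC3 by that much at 845 sites, of which the group was 50.9%. At 39 of the 430 sites PC3 itself was at least 0.3 above RWPE-1 while still 0.3 below the pair, so PC3 stood on a middle step there. RWPE-1 was at least 0.3 above PC3 at 11 of the sites.

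Sites were also grouped by their level in PC3 and RWPE-1. PC3 and RWPE-1 were both below 0.2 at 15155 sites. Against the higher of these lines, DU145 was at least 0.3 higher at 780 of them and LNCaP-FGC at 1007. Both were at 212 sites, which is 27.2% of the DU145 sites and 21.1% of the LNCaP-FGC sites. A beta above 0.8 was reached at 225 of the 15155 sites in DU145, at 362 in LNCaP-FGC and at 41 in both. PC3 and RWPE-1 were both above 0.8 at 2421 sites. There DU145 was at least 0.3 lower at 49, LNCaP-FGC at 292 and both at 7. Those 7 sites were 14.3% of the DU145 sites and 2.40% of the LNCaP-FGC sites. These counts are on the deposited betas and were not repeated with another scaling of the arrays.

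The 3 ways of setting a pair of cancer lines against the third and the control gave different balances between the directions. Setting DU145 with PC3 gave 530 higher sites (1.92%) and 67 lower sites (0.243%). LNCaP-FGC and PC3 gave 418 higher (1.52%) and 544 lower (1.98%). Higher sites made up 91.5% of the sites when DU145 paired with LNCaP-FGC and 88.8% when it paired with PC3, and 43.5% when LNCaP-FGC and PC3 were the pair. Both pairings with DU145 in the pair were weighted to the higher direction. With 1 array per line, these differences between pairings could not be tested.

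Fewer sites were open to a fall than to a rise. Each count was therefore divided by the number of sites whose levels in the opposing lines allowed a move of 0.3. For DU145 and LNCaP-FGC, PC3 and RWPE-1 left room for a rise at 20356 sites, of which 2.11% were in the group, and room for a fall at 7223, of which 0.554% were. With DU145 and PC3 as the pair the shares were 2.65% and 1.00%, and with LNCaP-FGC and PC3 they were 2.19% and 6.84%. These shares moved with the scaling of the arrays. The division by sites with room was repeated on quantile-normalized betas, a step added after seeing the data. The rising and falling shares were then 1.09% and 1.84% for DU145 and LNCaP-FGC. They were 1.27% and 2.01% when DU145 joined PC3, and 2.48% and 5.73% when LNCaP-FGC joined PC3. For DU145 and LNCaP-FGC the rising share was thus the larger one on the deposited betas and the smaller one after quantile normalization. The same was true of DU145 and PC3, while for LNCaP-FGC and PC3 the falling share was the larger one on both.

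Beside the 41 all-or-none sites higher in DU145 and LNCaP-FGC, there were 25 when the pair was DU145 with PC3 and 72 when it was LNCaP-FGC with PC3. In the lower direction, where DU145 and LNCaP-FGC had none, the former pair had 1 such site and the latter 26.

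**Figure D3:**
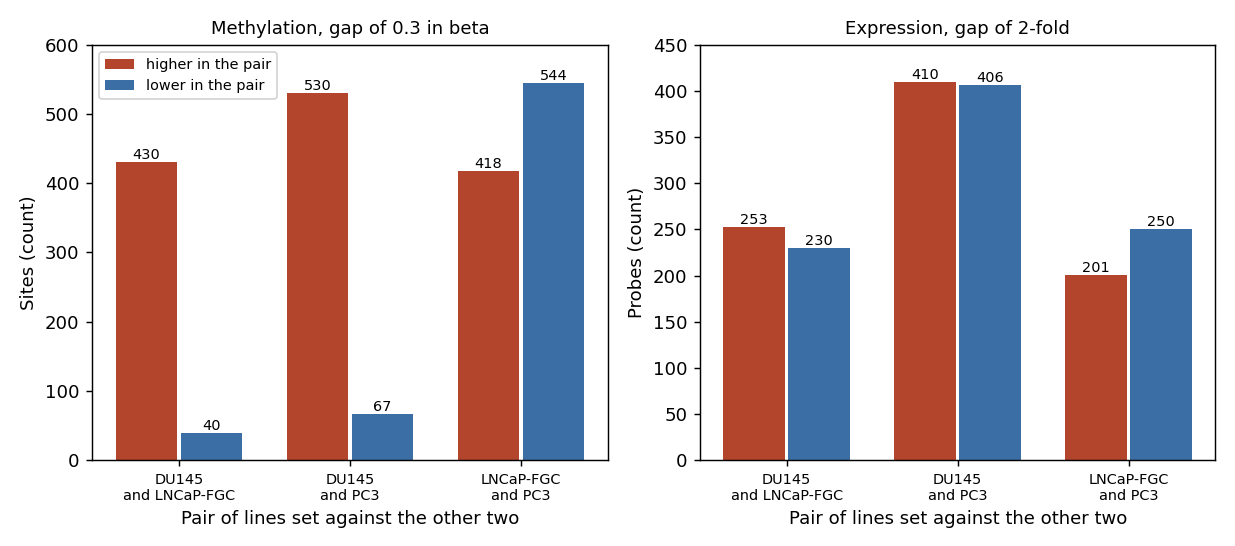
Number of methylation sites (left, gap of at least 0.3 in beta) and of expression probes (right, gap of at least 2-fold) at which a pair of cancer lines was higher (red) or lower (blue) than the third cancer line and RWPE-1. Methylation counts for DU145 and LNCaP-FGC are 430 and 40, and expression counts are 253 and 230.

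The balance of directions depended on how the arrays were scaled to one another. DU145 had the highest mean beta of the arrays, 0.340, against 0.302 in PC3, 0.288 in LNCaP-FGC and 0.258 in RWPE-1. When the 4 arrays were forced to a common distribution of betas by quantile normalization, the counts for DU145 and LNCaP-FGC became 216 higher and 148 lower, and the share of higher sites was 59.3% in place of 91.5%. Of those 216 sites 214 were among the 430, and 39 of the 40 lower sites were among the 148. The median beta of the 430 sites went from 0.826 to 0.689 in DU145 and from 0.110 to 0.205 in RWPE-1, and by less in the other lines, from 0.816 to 0.833 in LNCaP-FGC and from 0.151 to 0.131 in PC3. The same step took the share of higher sites to 61.6% with DU145 and PC3 as the pair, and to 50.7% with LNCaP-FGC and PC3. A linear rescaling of the arrays, on sites below 0.1 or above 0.8 in all lines, gave 431 and 40 sites. Among them were 421 of the 430 and all of the 40. The sites used for scaling already had close medians across the arrays, 0.0151 to 0.0348 and 0.889 to 0.925. Rescaling on them could therefore change little, and it does not bear on the change seen with quantile normalization. Whether the higher mean of DU145 belongs to the line or to its array cannot be told apart with 1 array.

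RNA of the same lines gave a readout that the choice of sites did not use. Intensities were background-corrected and quantile normalized, and a probe was counted when the lines of the pair lay at least 2-fold above, or 2-fold below, both other lines. The probes were thus selected on the same expression arrays, so their levels and gaps are a description and carry no test. DU145 and LNCaP-FGC were higher at 253 of 33622 probes (0.752%) and lower at 230 (0.684%). The directions were nearly even, 52.4% higher. Arrays scaled to a common median instead gave 218 higher and 276 lower, so the larger direction depended on the scaling. DU145 and PC3 gave 410 (1.22%) and 406 (1.21%), and LNCaP-FGC and PC3 gave 201 (0.598%) and 250 (0.744%). In expression the pair of DU145 and PC3 had the most probes, 816 in both directions, while DU145 with LNCaP-FGC had 483 and LNCaP-FGC with PC3 had 451. In methylation the order was another, with 962 sites when LNCaP-FGC and PC3 were the pair, 597 when DU145 joined PC3 and 470 when DU145 joined LNCaP-FGC. Under common-median scaling the share of higher probes was 44.1% when DU145 joined LNCaP-FGC, 63.7% in place of 50.2% when DU145 joined PC3, and 54.6% in place of 44.6% when LNCaP-FGC joined PC3.

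At the 253 higher probes the median log2 intensity was 10.05 in DU145 and 10.21 in LNCaP-FGC against 7.99 in PC3 and 7.62 in RWPE-1. The median gap between the sides was 2.52-fold, and 30 probes reached 4-fold. Both PC3 and RWPE-1 were at or below the median probe of their arrays at 28 of the 253 (11.1%). At most of these probes at least one of them was thus above that level. How often both lay that low among all probes that entered the comparison was not counted, so this share has no baseline.

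In the background-corrected values the widest gap was at ILMN_1755537, with log2 intensities of 10.59 in DU145 and 12.30 in LNCaP-FGC against 6.59 in PC3 and 6.41 in RWPE-1. Its raw intensities were 1712 and 5182 against 148 and 135, and the latter values lay below the median probes of PC3 (154) and RWPE-1 (151). ILMN_1761733 had log2 intensities of 12.31 and 10.61 against 6.71 and 6.83, and raw intensities of 5955 and 1662 against 157 and 163, the latter just above those medians. LNCaP-FGC was the brighter of the pair at the first probe and DU145 at the second. The log2 gaps were 4.01 and 3.78, and without background correction 3.33 and 3.20. With no detection p-values the low sides of these probes are not shown to be above background, so the sizes and order of these gaps are not settled.

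At the 230 lower probes the median log2 intensity was 7.73 in DU145 and 6.81 in LNCaP-FGC against 10.16 in PC3 and 10.63 in RWPE-1. The lines of the pair differed here. LNCaP-FGC was at or below its array median at 103 of the probes (44.8%) and DU145 at 51 (22.2%). Both were at 41 (17.8%). The matching shares over all probes that entered the comparison were not counted, so none is shown to be particular to this group. The median gap was 2.79-fold, and 55 probes reached 4-fold. At ILMN_1691376 the log2 intensities were 7.25 in DU145 and 7.32 in LNCaP-FGC against 11.97 in PC3 and 12.03 in RWPE-1, with raw intensities of 228 and 235 against 4592 and 3211. At ILMN_1739582 they were 6.92 and 6.74 against 11.50 and 12.34, with raw intensities of 197 and 187 against 3336 and 3952. Both lines of the pair lay above their array medians of 178 and 182 at these probes, and PC3 and RWPE-1 lay far above theirs. The log2 gaps were 4.65 and 4.59, and without background correction 4.19 and 4.01, with the same limit on their low sides. With arrays scaled to a common median they were 4.47 and 4.82, so the order of these probes changed.

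**Figure D4:**
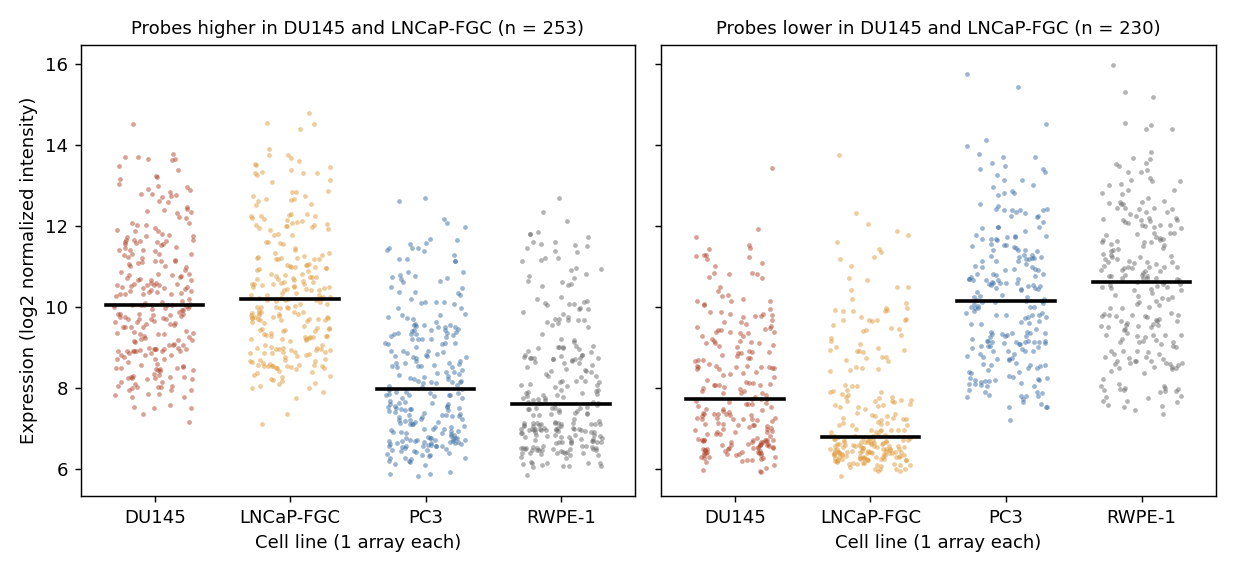
Log2 normalized intensity (vertical axis) in each line at the 253 probes higher and the 230 probes lower in DU145 and LNCaP-FGC. Each point is 1 probe on 1 array and the black bar is the median, which in the lower direction is 6.81 in LNCaP-FGC and 7.73 in DU145 against 10.16 in PC3 and 10.63 in RWPE-1.

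Since neither the sites nor the probes are paired with genes in these tables, it was not tested whether the genes beside the 430 and 40 sites were among those measured by the 253 and 230 probes.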

How the data were processed

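The authors deposited methylation as beta values (fractions of methylated signal) from a HumanMethylation27 beadchip, per the labels and series text. They deposited expression as probe intensities from a HumanHT-12 beadchip, exported with BeadStudio 3.1.3 per the series text. A further deposited table holds log2 values of the same expression arrays. Its 4 columns share a median of 7.37, which gives the scale and shows a normalization between arrays. Each of its columns correlated best with its own line's raw log2 intensities (r of 0.9993 to 0.9999 across probes), and how it was made is not given in the sources used.

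The 37 sites with a blank on any array were left out. Intensities were corrected with limma 3.58.1 (normexp, offset 50) in R 4.3.3 and quantile normalized on the log2 scale. Probes above their array's median on at least 1 array were kept, 33622 of 48803. No detection p-values were used. Counting was done in Python 3.11.15 and tested on simulated data. With 1 array per line, size rules replaced tests, and the number of arrays limits the precision.

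The members, lists and pairings were chosen with earlier results of these data known. The rule for names was the widest gap, 2 sites and 2 probes in each direction because no identifier (0 matches) was found in the gene tables used. The gene lists, the marker check and the expression of genes beside the sites were for that reason not analysed here, nor were sequences. Alternatives were other gaps, quantile-normalized or linearly rescaled betas, a log2(beta / (1 - beta)) scale (betas held 0.01 from the limits), and, for expression, no background correction, median scaling, the deposited log2 values, all probes and other folds.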

Additional observations from a re-analysis of the deposited data

How the results depend on the processing

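Counts have no sign, and 22 of 42 alternative counts moved by over 1.5 times. Within the 42, every count with another beta gap or another fold moved, and such a change alters a count by construction. The others that moved did so with quantile-normalized betas or on the log2(beta / (1 - beta)) scale. The larger direction changed for LNCaP-FGC and PC3 with quantile-normalized betas (492 higher and 479 lower sites), and for the probes of DU145 and LNCaP-FGC with common-median scaling or at 4-fold, and for those of LNCaP-FGC and PC3 with common-median scaling (251 higher, 209 lower). With a gap of 0.2 the higher and lower sites numbered 711 and 87 for DU145 and LNCaP-FGC, 903 and 122 for DU145 and PC3, and 635 and 908 for LNCaP-FGC and PC3. With a gap of 0.4 they numbered 234 and 11, 291 and 31, and 271 and 283. Quantile-normalized betas gave 216 and 148 for DU145 and LNCaP-FGC and 244 and 152 for DU145 and PC3. That setting removes any difference in overall level between arrays. Asking for 2 units on the scale of log2(beta / (1 - beta)), where differences near the limits are widened, gave 64 lower sites for DU145 and LNCaP-FGC and 845 higher sites for DU145 and PC3. Expression probes higher and lower in DU145 and LNCaP-FGC numbered 721 and 573 at 1.5-fold and 30 and 55 at 4-fold. Of the 44 alternatives for single sites and probes and for the probes of the other pairings, 35 stayed within 1.5 times and 9 did not, 8 of them through another fold; the alternatives for the probes of the other pairings were added after seeing the data. No paired analysis was possible because each line has 1 array per assay and no test was made, and no replicate could be left out. The alternatives for genes with member sites were not run, as sites and probes are not paired with genes. Without detection p-values, low intensities have no stated distance from background.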

Other observations

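The 37 sites with a blank beta were outside the counts. On the lines that had a value, 4 of them met the rule in the higher direction and 1 in the lower direction, with at least 1 line on each side.

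The gap in RNA between DU145 with LNCaP-FGC and PC3 with RWPE-1 reached 8-fold at 8 probes in the higher and 16 in the lower direction.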
